A study of Mus musculus with 6 samples.

Results

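The cell cycle genes described here were 43 genes of DNA replication, mitosis and their control, taken by symbol as a measure of proliferation in microglia at P15. All 43 were among the 26789 genes of the table, and 42 of them passed the filter, which asked for a mean of 10 normalized counts or more. Ccne1 did not pass it. The study asked how microglia of the rostral nucleus of the solitary tract (NST), the first brainstem relay for taste, differ between controls and E3–E12 diet mice. Dams of E3–E12 diet mice ate a sodium-restricted chow from embryonic day 3 to 12 and standard chow afterwards, whereas control dams ate standard chow throughout. The chows came from different makers, and dams on the restricted chow drank distilled water in that period and tap water later. All mice were C57Bl/6 and were collected on P15, and no transgene or agent is named for either group. Each of the 3 libraries per group came from 1 litter, with the tissue of 6 littermates pooled, so a value is a mean over a litter and not over single mice. The libraries are called C1 to C3 for controls and D1 to D3 for E3–E12 diet mice, by the replicate number in the labels. By the study's methods the cells were selected with magnetic beads against CD11b and their RNA was amplified, but the labels name laser microdissection and another library kit, so the isolation is uncertain.

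A cell enters division when D-type cyclins with Cdk4 and Cdk6 inactivate the retinoblastoma protein, which releases E2F factors that switch on genes for DNA replication. Genes of mitosis follow later, and many carry in their promoters a cell cycle homology region (CHR), through which the DREAM complex holds them off in resting cells, and CCAAT boxes, which bind the factor NF-Y. Microglia multiply in the brain after birth and then divide only slowly, so replication and mitosis genes are common readouts of their expansion.

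Promoters are shown first, since the gene groups described below are known for these motifs. RefSeq promoter sequences (build GRCm38.p6) were matched for 33 of the 43 genes, and the 250 bases before each start were searched on both strands. The CCAAT box (CCAAT) was found in 25 of the 33 genes (75.8%), against 37.5% of 27025 genes with a promoter. The CHR (TTTGAA) was found in 8 of 33 (24.2%, against 18.3%). E2F sites, searched as TTCCCGC or in the variant forms with TTGGCGC, then with TTCGCGC and last with TTGCCGC, were found in 11 of 33 (33.3%, against 9.01%). Among the 14 matched genes of mitosis 13 held a CCAAT box, 6 (42.9%) a CHR and 3 (21.4%) an E2F site. Of 6 matched licensing genes 5 held a CCAAT box, 1 a CHR and 4 an E2F site. An E2F and a CCAAT match overlapped in 1 of these genes, Ccnb1. The last 120 bases before the RefSeq start are printed for 6 genes of mitosis or chromosome structure, in the direction of the gene. CHR and CCAAT matches are in capitals, and this example set was chosen after the letters and values were seen. In the GRCm38 annotation used for exon lengths, Cdk1, Cdc20 and Ube2c begin inside the printed stretch. The last marked match of each of them lies after that annotated start.
Mki67, chr7:135716380-135716499, minus strand: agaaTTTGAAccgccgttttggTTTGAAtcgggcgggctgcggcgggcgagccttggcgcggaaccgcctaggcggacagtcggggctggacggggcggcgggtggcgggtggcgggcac
Top2a, chr11:99024190-99024309, minus strand: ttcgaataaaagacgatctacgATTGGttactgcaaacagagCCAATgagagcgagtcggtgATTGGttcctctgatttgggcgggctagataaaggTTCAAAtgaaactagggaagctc
Cdk1, chr10:69352913-69353032, minus strand: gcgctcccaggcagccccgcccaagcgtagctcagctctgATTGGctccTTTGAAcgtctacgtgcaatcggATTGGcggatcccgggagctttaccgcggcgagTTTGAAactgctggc
Kif11, chr19:37376262-37376381, plus strand: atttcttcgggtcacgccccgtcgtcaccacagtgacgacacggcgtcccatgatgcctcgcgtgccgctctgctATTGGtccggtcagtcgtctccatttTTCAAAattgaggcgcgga
Cdc20, chr4:118437344-118437463, minus strand: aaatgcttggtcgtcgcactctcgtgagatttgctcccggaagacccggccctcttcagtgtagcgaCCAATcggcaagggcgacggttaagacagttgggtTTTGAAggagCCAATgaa
Ube2c, chr2:164769809-164769928, plus strand: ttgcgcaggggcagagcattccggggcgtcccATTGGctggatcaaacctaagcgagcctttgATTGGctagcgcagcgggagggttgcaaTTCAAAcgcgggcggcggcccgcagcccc

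For comparison, E2F matches are in capitals in the same stretch before Rrm1 and Mcm6, the genes of synthesis and licensing with the most negative log2 fold changes of their groups. Mcm6 holds 2 places where matches on opposite strands overlap.
Rrm1, chr7:102441575-102441694, plus strand: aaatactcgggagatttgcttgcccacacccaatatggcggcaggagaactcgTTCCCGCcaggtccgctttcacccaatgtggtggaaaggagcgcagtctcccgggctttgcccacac
Mcm6, chr1:128359706-128359825, minus strand: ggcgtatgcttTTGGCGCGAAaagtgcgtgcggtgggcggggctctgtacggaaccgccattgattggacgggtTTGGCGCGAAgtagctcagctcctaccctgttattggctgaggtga

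No cell cycle gene passed the test of diet that was run across all genes. For each of 18007 genes, log2(normalized count + 1) was compared by a two-sided limma test, and Benjamini-Hochberg adjusted p-values under 0.1 were called. Of the 42 cell cycle genes tested 0 passed (smallest adjusted p = 0.999), beside a background of 0.00% of all genes. The study's own test, DESeq2 at the same cutoff, did call genes in both directions. Its lists name none of the cell cycle genes described here, but some called genes, such as Mxd3 and Pes1, are labelled there with proliferation or cell cycle. At an unadjusted p under 0.05 the count was 0 of 42, beside 268 genes or 1.49% of all tested. The groups did not overlap in 1 of the 42 genes (2.38%), Cdk1, beside 5.90% of all genes. By mean log2 level, 22 of the 42 (52.4%) leaned towards E3–E12 diet mice and 20 towards controls, and 54.4% of all genes leaned towards E3–E12 diet mice. That split depended on the scaling, with 25 of 42 (59.5%) after scaling to equal totals and 17 (40.5%) after quantile normalization. The median log2 fold change of the 42 genes was 0.04, and that of all genes was 0.09. Single log2 fold changes ran from -1.73 for Rrm1 to 2.60 for Ccnb1, and 11 were larger than 1 in size. Standard errors ran from 0.47 for Ccnd1 to 1.79 for Cdc6, with a median of 0.89. Each of the 42 intervals (95%) held 0 and none lay wholly between -1 and 1, so for every gene a difference of 1 log2 unit, in at least 1 direction, lay within the error. In these bulk libraries fewer dividing cells and less RNA of these genes per cell cannot be told apart.

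**Figure D1:**
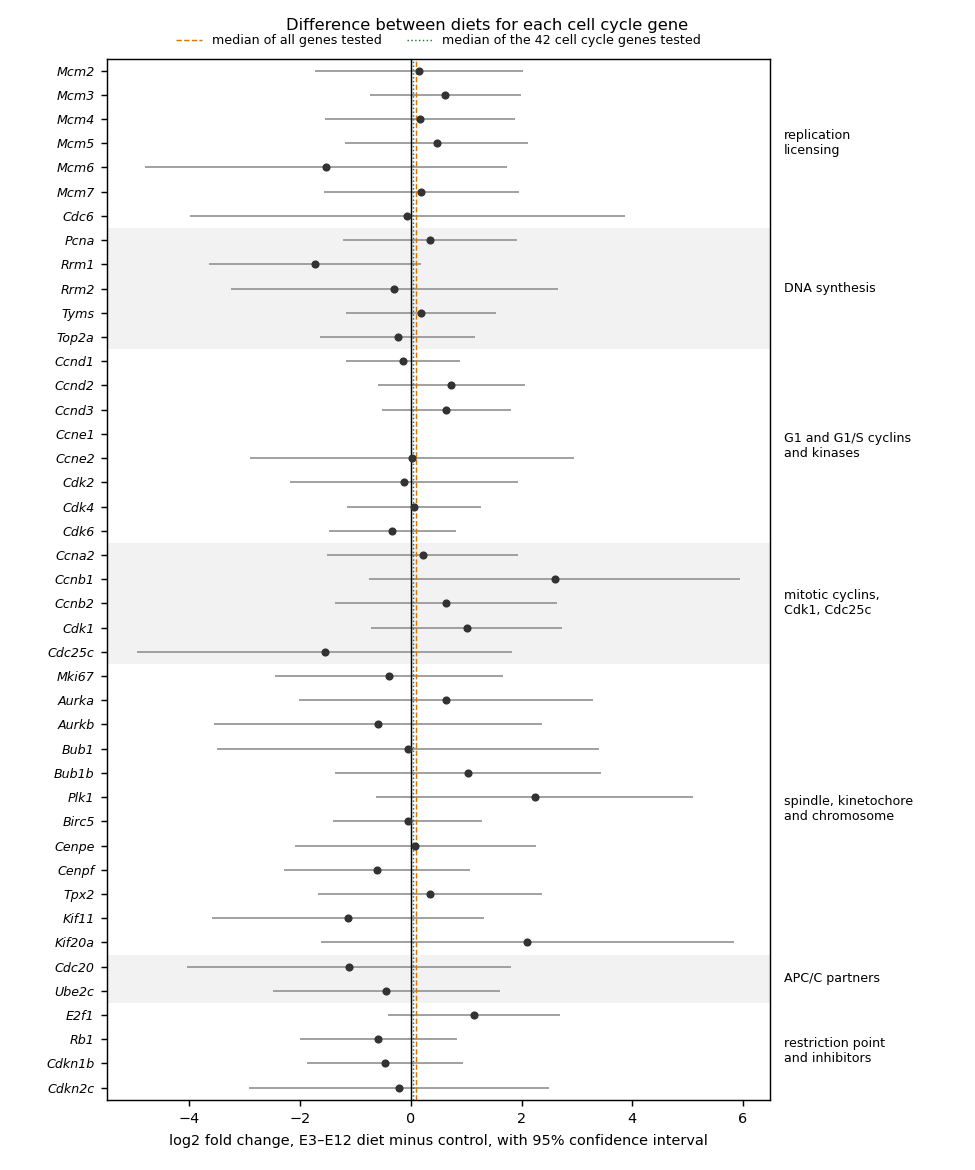
Log2 fold change of each cell cycle gene (E3–E12 diet minus control, on log2(normalized count + 1), n = 3 libraries each) with its 95% confidence interval from limma, grouped by role, with dashed and dotted lines at the medians of all 18007 genes and of the 42 genes tested. Every interval crosses 0, and Ccne1 has no point because it did not pass the filter.

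The libraries themselves differed in ways that touch these genes. The normalized counts summed to between 9407141 and 17204618 per library. C2 had the highest total and the most genes listed at 0 (39.7% of the table), and 2 cell cycle genes, Ccnb1 and Kif20a, were listed at 0 there and nowhere else. The same library held the highest value of the 6 for 8 cell cycle genes and the lowest for 12. Of the 43 genes, 13 shared at least 10% of their 50-base windows with other annotated genes, among them Mcm7 (23.3%) and Cdk4 (17.01%), and their values are uncertain to that extent. All 16 microglia markers were above 0 in every library, and they took between 1.25% and 3.42% of the normalized counts.

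Levels are given per kilobase of exon where genes are compared with each other, as means over the 6 libraries. Pcna, the sliding clamp of DNA polymerase, was highest at 354 normalized counts per kilobase, and Rb1, the retinoblastoma protein, was next at 347. Ccnd1 (274), Mki67 (272), Cdk6 (232) and Cdk4 (157) followed. The ranges of these 6 genes over the libraries overlapped with each other, and that of Mki67 was 11.1-fold, so their order was not set beyond the spread. Cdc20 stood seventh at 89.98, but 1 library held most of that signal. The bottom of the order was held by Aurkb (8.52), Cdc6 (4.09) and Ccne1 (2.42). Of the 42 genes tested, 16 were above the median level per kilobase, and most genes of licensing and mitosis were below it.

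**Figure D2:**
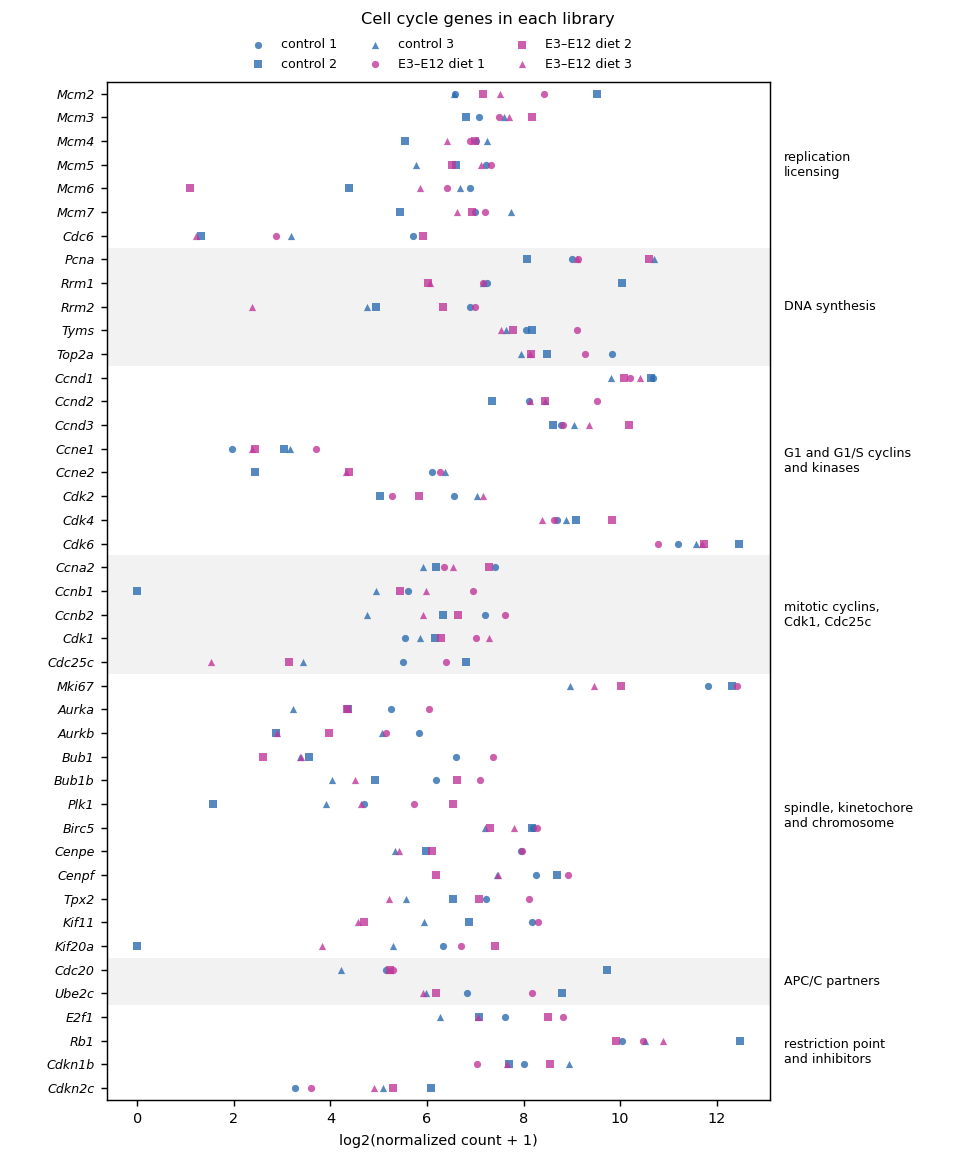
Level of each of the 43 cell cycle genes in each library, as log2(normalized count + 1), with controls in blue, E3–E12 diet mice in magenta and the symbol giving the replicate number. The spread within a diet exceeds the distance between diets for most genes, and circles, the replicate 1 libraries, sit to the right for most spindle genes.

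The licensing genes load the replicative helicase onto DNA before S phase. A positive log2 fold change was found in 5 of 7 (3 of 7 after quantile normalization), beside 54.4% of all genes, with 0 past the threshold. Mcm2, a helicase subunit, had 95.2, 732 and 93.7 normalized counts in C1, C2 and C3 and 343, 142 and 182 in D1, D2 and D3. All 3 diet libraries were above 2 of the controls, but C2 was the highest of all, and the groups overlapped. Its log2 fold change was 0.14 (SE 0.85), and it was 1.12 without C2 and -0.35 without C3. The log2 fold changes of Mcm3, Mcm4, Mcm5 and Mcm7, which encode other subunits of the same ring, lay between 0.16 and 0.63. Mcm3 was the steadiest of the 6 subunits, with 111 to 193 normalized counts in controls and 178 to 288 in E3–E12 diet mice. Mcm6 ran from 1.12 to 117 normalized counts over the 6 libraries, and its log2 fold change of -1.53 (SE 1.49) became 0.15 without D2, where the value of 1.12 stood. Cdc6, the loader of the helicase, ran from 1.32 to 59.6 normalized counts and had the largest standard error of all 42 genes.

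Of the 5 genes of DNA synthesis, 2 had a positive log2 fold change and 3 a negative one. Pcna had 511, 268 and 1669 normalized counts in C1, C2 and C3 and 555, 1546 and 549 in D1, D2 and D3. A single library of each diet, C3 and D2, stood well above the others of its group, and the order of the diets was not set (log2 fold change 0.35, SE 0.71, and -0.25 without C2). Of the 50-base windows of Pcna, 19.1% also occur in the pseudogene Pcna-ps2, so its value is uncertain.
Rrm1, the large subunit of ribonucleotide reductase, had 150.1, 1057 and 141 normalized counts in controls and 142, 64.0 and 65.3 in E3–E12 diet mice, in the same order of replicates. C2 stood far above the rest, and the groups overlapped only by the near tie of C3 with D1. It had the smallest unadjusted p of the 42 genes (0.071, limma, adjusted p = 0.999) and a log2 fold change of -1.73 (SE 0.87), which was -0.78 without C2. Rrm2, the small subunit of the same enzyme, had 118, 29.6 and 26.1 normalized counts in controls and 126, 80.0 and 4.15 in E3–E12 diet mice. Its highest values were the replicate 1 libraries of both diets, and its log2 fold change of -0.30 (SE 1.34) became 1.13 without D3. Tyms, which makes thymidylate, had 264, 286 and 197 normalized counts in controls and 547, 218 and 185 in E3–E12 diet mice, so only D1 stood outside the range of the others. Its log2 fold change of 0.19 (SE 0.62) was -0.29 without that library.
Top2a, the topoisomerase that untangles chromosomes, had 916, 357 and 246 normalized counts in controls and 620.1, 286 and 279 in E3–E12 diet mice. Replicate 1 was again the highest library of each diet, and the other 4 libraries lay close together. Its log2 fold change was -0.23 (SE 0.64), and 0.31 without C1.

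Genes of the G1 phase had the smallest spread of the groups described here. Their median SD within a diet was 0.59 on the log2 scale, against 1.34 for the spindle genes and 1.07 for all genes tested. Ccnd1, Ccnd2 and Ccnd3 encode the D-type cyclins that answer to growth signals. Ccnd1 had 1636, 1595 and 891 normalized counts in C1, C2 and C3 and 1186, 1081 and 1353 in D1, D2 and D3. The diet libraries lay within the range of the controls (log2 fold change -0.14, 95% confidence interval -1.17 to 0.89), and the sign turned to 0.01 without C1. The annotation places the LTO1 gene on the opposite strand over part of Ccnd1, sharing 21.6% of its windows, and the strand setting of the counting is not given in the sources used here.
Ccnd2 had 275, 162 and 349 normalized counts in controls and 733, 349 and 279 in E3–E12 diet mice, with the highest value in D1. Ccnd3 had 438, 391 and 524 in controls and 448, 1165 and 651 in E3–E12 diet mice, with the highest value in D2. Both were higher in mean log2 level in E3–E12 diet mice under every alternative run (log2 fold changes 0.73, SE 0.60, and 0.64, SE 0.53), and both had an adjusted p of 0.999 by limma with Benjamini-Hochberg adjustment. Ccnd2 was 0.32 without D1 and Ccnd3 was 0.27 without D2.
Cdk6, the kinase partner of D-type cyclins that had the highest mean count of the 43 genes, had 2361, 5622 and 3034 normalized counts in controls and 1769.5, 3403 and 3319 in E3–E12 diet mice. Cdk4, its close relative, had 412, 544 and 469 in controls and 395, 909 and 334 in E3–E12 diet mice. Neither pattern set the diets apart, with log2 fold changes of -0.34 (SE 0.52) and 0.06 (SE 0.55) whose signs turned without 1 library, to 0.02 for Cdk6 without C2 and to -0.38 for Cdk4 without D2. The kinase Cdk2 and the E-type cyclins, which drive entry into S phase, were lower in level per kilobase. Cdk2 ran from 31.8 to 141 normalized counts, Ccne2 from 4.45 to 81.7 and Ccne1 from 2.91 to 11.96.

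At the restriction point, E2f1 was the gene whose mean differed most between diets. E2f1, a transcription activator of replication genes, had 195, 133 and 76.6 normalized counts in C1, C2 and C3 and 449, 365 and 132 in D1, D2 and D3. D1 and D2 were above every control, and D3 was below 2 of them (log2 fold change 1.14, SE 0.71, limma adjusted p = 0.999). The value stayed positive under every alternative run, between 0.78 and 1.68 in fits that each lacked 1 library, the highest without D3. Rb1, which restrains E2F factors, had 1048, 5731 and 1465 normalized counts in controls and 1417, 966 and 1901 in E3–E12 diet mice. C2 alone set the direction of Rb1, since its log2 fold change of -0.59 (SE 0.64) was 0.15 without it.
Cdkn1b encodes p27, an inhibitor of cyclin-dependent kinases in resting cells, and had 256, 206 and 489.8 normalized counts in controls and 131, 371 and 201 in E3–E12 diet mice. Cdkn2c encodes p18, an inhibitor of Cdk4 and Cdk6, and had 8.56, 66.5 and 33.0 in controls and 11.2, 38.1 and 28.8 in E3–E12 diet mice. In both genes the lowest diet library was replicate 1, and the groups overlapped. Cdkn1b was lower in E3–E12 diet mice under every alternative run (log2 fold change -0.47, SE 0.64, and -0.10 without C3). Cdkn2c had a log2 fold change of -0.21 (SE 1.23), which was 0.43 without C2.

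The mitotic cyclins and Cdk1 form the kinase that starts mitosis. Of the 5 genes of this group 4 had a positive log2 fold change (3 of 5 after quantile normalization), beside 54.4% of all genes. Cdk1 had 45.4, 70.2 and 57.2 normalized counts in C1, C2 and C3 and 128, 77.3 and 154 in D1, D2 and D3. Every diet library was above every control, by a narrow margin between C2 and D2, and after quantile normalization the groups overlapped. The mean was 57.6 ± 12.4 in controls and 119.9 ± 39.2 in E3–E12 diet mice (SD, n = 3 libraries each, exact two-sided permutation p = 0.1, the smallest that 3 against 3 allows). Any gene without overlap has that permutation p, so it adds nothing to the absence of overlap. The log2 fold change of Cdk1 was 1.01 (SE 0.78, limma adjusted p = 0.999) and ran from 0.80 to 1.29 over fits that each lacked 1 library.
Ccnb1, the main cyclin of mitosis, had 47.9, 0 and 30.0 normalized counts in controls and 123, 42.2 and 62.3 in E3–E12 diet mice. The control listed at 0 weighed heavily on its log2 fold change of 2.60 (SE 1.52), which was 0.84 without C2. Windows that also occur in other genes, mostly the pseudogene Ccnb1-ps, made up 23.4% of Ccnb1, so its value is uncertain. Ccna2, the cyclin of S and G2 phase, had 170.0, 71.9 and 59.2 normalized counts in controls and 80.7, 156 and 91.4 in E3–E12 diet mice, so the highest library was a control and the groups overlapped. Its log2 fold change was 0.22 (SE 0.78), and -0.08 without C3. Ccnb2 ran from 26.0 to 196 normalized counts, and Cdc25c, the phosphatase that activates Cdk1, ran from 1.89 to 111.

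Spindle, kinetochore and chromosome genes leaned to neither diet, with 6 of 12 positive log2 fold changes, 8 after scaling to equal totals and 5 after quantile normalization. Mki67, the gene of the Ki-67 protein that marks cycling cells, had 3621, 5068 and 494 normalized counts in C1, C2 and C3 and 5498, 1034 and 703 in D1, D2 and D3. The high libraries, 2 controls and 1 of the diet group, stood apart from 3 low ones, and the high and low libraries did not follow diet. The mean was 3061 ± 2338 in controls and 2412 ± 2678 in E3–E12 diet mice (SD, n = 3 libraries each), with a log2 fold change of -0.39 (SE 0.94) that was 0.25 without C2, 0.19 without D3 and -1.43 without C3. Birc5, a subunit of the chromosomal passenger complex, had 292, 286 and 145 normalized counts in controls and 311, 157 and 221 in E3–E12 diet mice. It varied only 2.14-fold over the 6 libraries, and the means of the diets lay close (log2 fold change -0.06, 95% confidence interval -1.41 to 1.29), with 0.19 without D2.
Plk1, a kinase of centrosomes and spindle, had 24.8, 1.98 and 14.0 normalized counts in controls and 52.1, 92.2 and 23.7 in E3–E12 diet mice. C1 was just above D3, which was the only overlap. Its log2 fold change of 2.24 (SE 1.30, limma adjusted p = 0.999) was 1.33 without C2. Cenpf, a kinetochore protein, had 305, 413 and 174 normalized counts in controls and 481, 71.3 and 176 in E3–E12 diet mice, which put both the highest and the lowest value in the diet group (log2 fold change -0.61, SE 0.76).
The log2 fold changes of the other 8 genes of this group lay between -1.14 for Kif11, a motor that pushes the spindle poles apart, and 2.11 for Kif20a, a motor of late mitosis listed at 0 in C2. Kif20a was 0.17 without that library, and 25.2% of its windows also lie in Cdc23 on the opposite strand.

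Both partners of the anaphase promoting complex were lower in mean log2 level in E3–E12 diet mice, and 1 library held that direction. Cdc20, the activator of the complex, lay between 17.7 and 38.4 normalized counts in 5 libraries and at 844 in C2. Its log2 fold change of -1.11 (SE 1.33) was 0.56 without that library. Ube2c, the enzyme that passes ubiquitin to it, ran from 59.7 to 445 normalized counts, with the highest value in the same library. Both log2 fold changes were positive once C2 was left out. Of the windows of Ube2c, 15.99% occur in other genes, mostly Tnnc2 on the opposite strand.

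Most spindle genes were highest in the replicate 1 library of each diet. C1 was the highest control in 10 of the 12 spindle, kinetochore and chromosome genes, where it was the highest control in 35.4% of all genes tested. The exceptions were Mki67 and Cenpf, both highest in C2. D1 was the highest diet library in 10 of 12, against 39.7% of all genes, with the exceptions Plk1 and Kif20a. Both held in 8 of 12 (66.7%), against 20.1% of all genes, and scaled to equal totals in 10 of 12 (83.3%), against 31.2%. Replicate 1 was above replicate 3 in both diets in all 12 of these genes, a count with no share of all genes beside it. Cenpe, a kinetochore motor, showed it most plainly, with 247 and 251 normalized counts in the replicate 1 libraries and 39.2 to 67.4 in the other 4. The mean log2 level of the 12 genes was 7.21, 5.49 and 5.44 in C1, C2 and C3 and 7.67, 6.07 and 5.29 in D1, D2 and D3. Over all genes tested the same mean was 6.94, 6.13 and 6.78 in controls and 7.09, 6.69 and 6.62 in E3–E12 diet mice, so the replicate 1 libraries were also the highest there, by less. The group means of the 12 spindle genes were 6.05 ± 1.01 in controls and 6.35 ± 1.21 in E3–E12 diet mice (SD, n = 3), so the diets differed by less than the spread within each. The replicate 1 libraries were the highest of both diets in 2 of 5 genes of DNA synthesis, 2 of 7 licensing genes and 0 of 7 genes of the G1 phase. Scaled to equal totals these counts were 3 of 5, 3 of 7 and 2 of 7, the last (28.6%) close to the 31.2% of all genes. Before and after that scaling the mitotic cyclins, Cdk1 and Cdc25c had 2 of 5. Genes of the restriction point had 1 of 4 and partners of the anaphase promoting complex 0 of 2, also with either scaling. Over the 42 genes tested, the deviations from the gene means of the replicate 1 libraries of the 2 diets had a Pearson correlation of 0.55, and over all genes 0.15. For replicate 2 the correlation was negative, at -0.46 over the 42 genes and -0.28 over all genes, and for replicate 3 it was 0.30 and 0.13. C2 was negatively correlated with each other library over the 42 genes, from -0.46 to -0.18, so its value with D2 is not particular to replicate 2. The gene means were taken over all 6 libraries, which draws pairs of libraries towards negative values. This is a description over genes that share the same libraries. The labels do not say that a replicate number marks a shared day or batch.

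**Figure D3:**
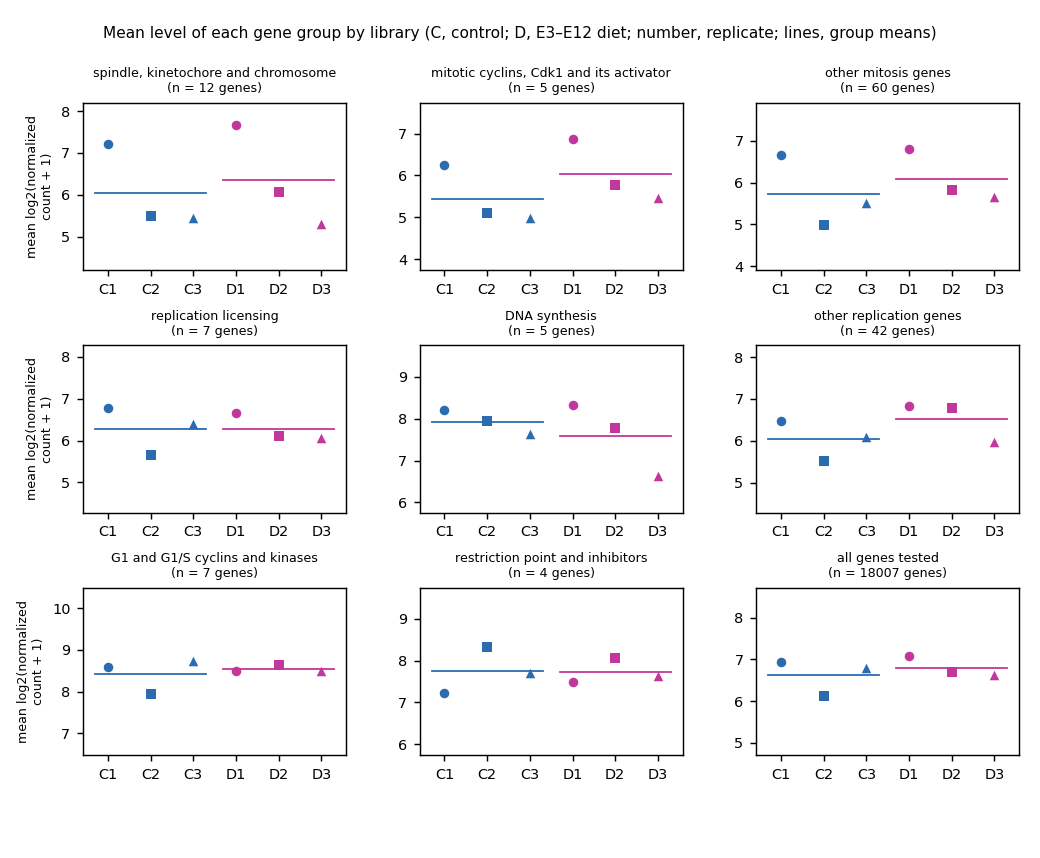
Mean log2(normalized count + 1) of each gene group in each library (C, control and D, E3–E12 diet, with the replicate number; lines are the group means of 3 libraries). C1 and D1 are the highest points of their diet in the panels of all genes tested, spindle genes, mitotic cyclins, licensing, DNA synthesis and the other mitosis and replication genes, but not in those of G1 genes and of the restriction point. The gap of C1 and D1 to the other libraries of their diet is wider for spindle genes than for all genes, and C2 is the lowest library for all genes.

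Markers of some other cells moved with the same libraries. The 16 microglia markers took 1.30% of the normalized counts in C1 and 1.25% in D1, and 2.61% to 3.42% in the other 4. Of 9 marker lists of other cells, 5 had their highest share within each diet in replicate 1. Those of oligodendrocytes, choroid plexus and ependyma, border macrophages and other blood cells did not. Choroid plexus and ependymal markers had their highest control share in C3 (0.160%). Border macrophage markers had their lowest share of each diet in C1 (0.0660%) and D1 (0.0625%). Oligodendrocyte precursors also divide at this age, and their 8 markers, none listed at 0, took 0.0707% in C1, 0.107% in D1, 0.0672% in D2 and between 0.00755% and 0.0153% in the rest. The 8 astrocyte markers took 0.0943% and 0.102% in the replicate 1 libraries and 0.0131% to 0.0465% in the other 4, and Gfap and Aldh1l1 were listed at 0 in C2. The spindle genes themselves took 0.0544% and 0.0817% in the replicate 1 libraries, and 0.0355%, 0.00904%, 0.0168% and 0.00883% in C2, C3, D2 and D3. Mki67, with 3621, 5068 and 5498 normalized counts in C1, C2 and D1, made up most of that sum in those libraries. C2, the library with a high Mki67 among the rest, had the highest share of microglia markers (3.42%). Positive log2 fold changes were counted in 0 of 16 microglia markers, 8 of 8 oligodendrocyte precursor markers and 7 of 8 astrocyte markers. The counts were 6 of 8 for mural and fibroblast markers and 5 of 8 each for neuron and endothelial markers, beside 54.4% of all genes. Choroid plexus and ependymal markers had 3 of 7, oligodendrocyte markers 2 of 8, and border macrophage and other blood cell markers 1 of 8 each. No marker had an unadjusted p under 0.05 by limma. The part of other cells in the levels of the spindle genes, or in the differences between diets, was not tested.

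**Figure D4:**
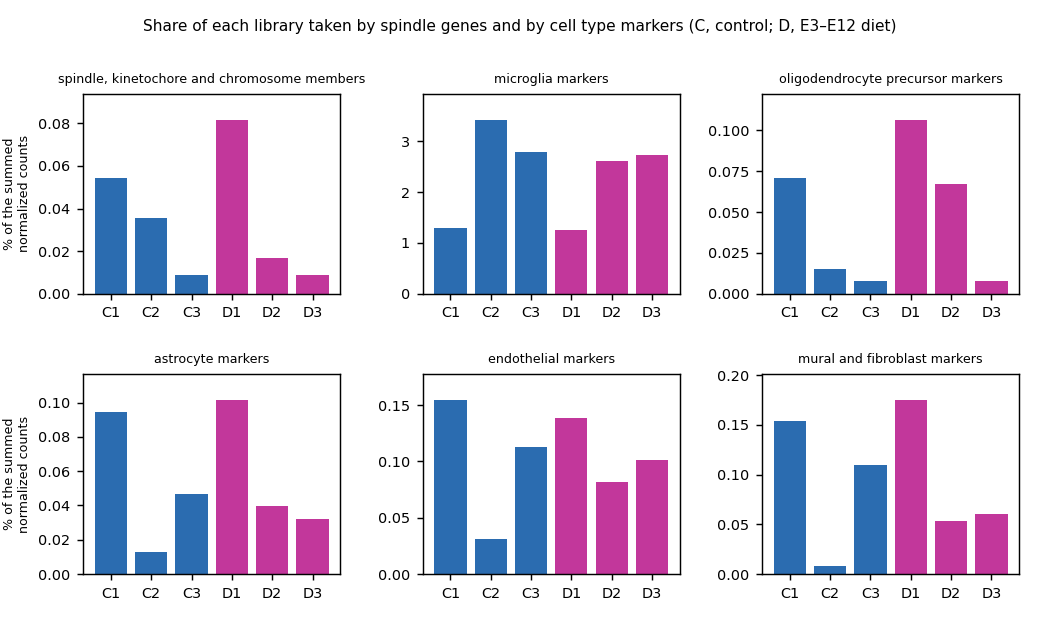
Share of the summed normalized counts of each library taken by the 12 spindle, kinetochore and chromosome genes and by marker lists of 5 cell types (bars start at 0; C, control; D, E3–E12 diet; 1 library per bar, with no error bar). C1 and D1 have the highest bars for spindle genes, oligodendrocyte precursors, astrocytes, endothelium and mural cells and the lowest for microglia. Mki67 weighs most in the spindle bars. Marker lists of other cells that did not follow this pattern are not drawn.

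Other genes of the cell cycle, taken from 3 further lists of 143 genes, were tested in the same fit. Of the 130 that passed the filter 0 passed the adjusted threshold, 4 had an unadjusted p under 0.05 (beside 1.49% of all genes) and 11 (8.46%, beside 5.90% of all genes) had groups that did not overlap. Positive log2 fold changes were counted in 29 of 42 other replication genes (69.0%) and 35 of 60 other mitosis genes (58.3%), beside 54.4% of all genes. Other brakes and checkpoint genes had 11 of 28 (39.3%). After quantile normalization these counts were 23 of 42, 29 of 60 and 10 of 28, beside 49.7% of all genes.
Orc1, a subunit of the complex that marks replication origins, had 114, 5.08 and 44.3 normalized counts in C1, C2 and C3 and 850.3, 184 and 63.7 in D1, D2 and D3 (log2 fold change 2.78, SE 1.25). Gins2, a subunit of the active helicase, had 28.8, 0 and 55.0 in controls and 150.3, 141 and 86.3 in E3–E12 diet mice (log2 fold change 3.38, SE 1.46). Ckap2l, a spindle protein, had 341, 151 and 98.5 in controls and 529.8, 659.6 and 418 in E3–E12 diet mice (log2 fold change 1.61, SE 0.62). The groups did not overlap for Gins2, where a library at 0 weighed on the fold change, and Ckap2l, whereas Orc1 in D3 was below C1.
Skp2, which marks p27 for destruction, was the only 1 of the 4 that was lower, with 151, 400.1 and 277 normalized counts in controls and 33.1, 134 and 28.9 in E3–E12 diet mice and no overlap (log2 fold change -2.31, SE 0.83). All 4 had an adjusted p of 0.999 by limma with Benjamini-Hochberg adjustment. The genes highest in mean level were Tk1, Rfc5 and Dnmt1 of the replication list, Hjurp, Ckap5 and Tubb4b of the mitosis list and Btg2, Btg1 and Cdkn1a of the brakes. Tk1, a thymidine kinase of S phase, had 8205 normalized counts in C2 and between 517 and 1480.2 in the others. C2 was also the highest library for Rrm1 and Mcm2, but it was the lowest for Pcna, Mcm3, Mcm4 and Mcm7. Cdkn1a, the gene of the inhibitor p21, had 1124, 966 and 904 in controls and 1419.9, 3405 and 1878 in E3–E12 diet mice, without overlap (log2 fold change 1.07, SE 0.49, limma adjusted p = 0.999).
The other 7 genes without overlap are named after their values were seen, and each had an adjusted p of 0.999 by limma. Cdk7 and its partner cyclin Ccnh, which form the kinase that activates cyclin-dependent kinases, were both lower in every diet library than in every control. Cdk7 had 626, 1499 and 466 normalized counts in controls and 378, 430.2 and 373 in E3–E12 diet mice (log2 fold change -0.95, SE 0.56, and -0.46 without C2). Ccnh had 262, 291 and 211 in controls and 191, 192 and 199.8 in E3–E12 diet mice, a small gap (log2 fold change -0.37, SE 0.57). Espl1, the separase that parts sister chromatids, was lower as well, with 232 to 289 normalized counts in controls and 80.9 to 194 in E3–E12 diet mice. The 4 that were higher were Pola2 (29.95 to 184 in controls and 238 to 371 in E3–E12 diet mice), Orc6 (15.2 to 46.0 and 52.3 to 74.6), Ccnf (21.0 to 37.2 and 42.7 to 96.4) and Kif22 (0 to 30.2 and 31.2 to 40.7). In 3 of these 4, all but Ccnf, C2 was the lowest library. Scaled to equal totals, the absence of overlap was kept in 4 of the 11 genes, Cdkn1a, Gins2, Pola2 and Skp2, and after quantile normalization in 9, all but Orc6 and Ccnf.
Among the other mitosis genes the replicate 1 libraries were the highest of both diets in 31 of 60 (51.7%), beside 20.1% of all genes. Scaled to equal totals they were so in 40 (66.7%), beside 31.2% of all genes. For the other replication genes the counts were 8 of 42 (19.0%) and, scaled to equal totals, 16 (38.1%). For the other brakes and checkpoint genes they were 3 of 28 (10.7%) and 9 (32.1%).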

How the data were processed

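RNA was sequenced from P15 microglia of 3 control and 3 E3–E12 diet litters. The authors deposited a table of normalized counts per gene, a signal that is scaled and not whole, so reads could not be recovered, the depth per library is unknown and no interval for counting error was computed. The submitters' processing notes name FastQC, STAR, featureCounts, DESeq2 and GRCm38 without versions. The name of the table mentions surrogate variables, and how they entered the values is not given in the sources used here. Ensembl identifiers were matched to symbols for 26507 of 26789 genes. Genes whose mean reached 10 normalized counts were tested on log2(value + 1) with limma 3.58.1 (R 4.3.3, trend, two-sided, Benjamini-Hochberg, threshold 0.1, the cutoff of the study), since count tests need counts. The pseudocount of 1 understates changes of low genes. The fit was run on simulated data. Recovery of known changes was required only at a spread well below that of these libraries, so it does not show how large a change could be found here. Exon lengths and shared 50-base windows came from a GRCm38 annotation. Values in every library were given for the 15 genes highest in mean count, for 19 genes listed by symbol and for genes without overlap between groups or with an unadjusted p under 0.05, and other cell cycle genes by their range. Genes of the 3 wider lists were named where their unadjusted p was under 0.05 or they were among the 3 highest in mean level of their list, and 7 more without overlap were added. The genes and lists were chosen with earlier results of these data known. The labels do not say which replicates share a day, and same-numbered libraries are separate litters. With 1 library per litter, p-values measure the spread between libraries, in which litter and sample handling cannot be told apart.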

Additional observations from a re-analysis of the deposited data

How the results depend on the processing

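With each of 15 alternatives (another pseudocount or filter, another scaling, the replicate number as a block, a covariate, each library left out), 0 cell cycle genes passed the adjusted threshold. Leaving out replicate 1 of both diets was chosen after seeing the data. The number of genes past the threshold over all genes was 0 to 1 with each library left out, the 1 being Bicra without E3–E12 diet replicate 3. Cell cycle genes without overlap between groups numbered 1, but 4 after quantile normalization (beside 6.85% of all genes), 9 without replicate 1 of both diets and 4 to 7 with single libraries left out, where the share of all genes was 12.6% to 17.8% (27.8% with 2 libraries gone), since smaller groups overlap less often. Scaling to equal totals moved the median of all genes by 0.11, and Birc5 was 0.063 there, whereas Ccna2 was -0.073 after quantile normalization. Without replicate 1 of both diets Mcm2 was -0.71, Tyms -0.24 and Ccnd1 0.021. With each library left out in turn the log2 fold changes ran from -0.39 to 0.19 for Birc5, -0.078 to 0.67 for Ccna2, -0.43 to 0.011 for Ccnd1, -2.18 to 0.56 for Cdc20, -0.38 to 0.35 for Cdk4, -0.61 to 0.020 for Cdk6, -0.98 to 0.43 for Cdkn2c, -0.35 to 1.12 for Mcm2, -2.51 to 0.15 for Mcm6, -1.43 to 0.25 for Mki67, -0.25 to 1.07 for Pcna, -1.07 to 0.15 for Rb1, -1.18 to 1.13 for Rrm2, -0.64 to 0.31 for Top2a and -0.29 to 0.49 for Tyms. Of 25 genes followed, 10 kept their sign under every alternative. With the first principal component as a covariate Plk1, Rrm1 and Ccnb1 had an unadjusted p under 0.05, with limma adjusted p of 0.612, 0.582 and 0.535. That component was drawn from what the diet fit left over. Their fold changes therefore stayed as they were while their standard errors fell (Ccnb1, 1.52 to 0.86). The smaller p-values are in part built in by that step. Rrm1 and Ccnb1 also had an unadjusted p under 0.05 without control replicate 1 (limma adjusted p = 0.875), and Rrm1 without control replicate 3 (limma adjusted p = 0.997). Blocking on the replicate number, 0 genes passed and 478 had an unadjusted p under 0.05 (smallest adjusted p = 0.979, limma). Over all genes tested, same-numbered libraries correlated at 0.26, 0.035 and 0.14 in their deviations from the means of their own diet. This measure differs from the deviations from gene means over all libraries given for the spindle genes. The numbers were not taken as pairs, and not every library correlated best with its own number. The depth behind each value is unknown, which limits the low genes such as Ccne1, Cdc6 and Cdc25c.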
